A study of Mus musculus with 11 samples.

Results

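The 1 Mb windows of the mouse autosomes that were richest in SA1 are described here. They came from chromatin immunoprecipitation followed by sequencing (ChIP-seq) of cohesin in mouse embryonic fibroblasts (MEFs), primary connective tissue cells taken from embryos. Each autosome was divided into windows of 1 Mb from its first base (mm9), and a window was a member when it held the midpoints of 20 or more wild-type SA1 peaks. This gave 308 SA1-rich windows among 2482 autosomal windows, or 12.4%, and left 2174 other windows. The windows were chosen by the number of wild-type SA1 peaks, so that number is given as a description, and the other lists carry the comparison.

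The cells were SA1-null or wild type, both from embryos at stage E12.5 and both on a C57BL/6 x 129 Sv background. They were untreated and grown in serum-supplemented medium. SA1-null cells were profiled for SA1, SA2, SMC1 (2 samples in 1 list) and SMC3. Wild-type cells were profiled for SA1, SA2, SMC1 and SMC3, with 1 sample each, and 2 input libraries were DNA pooled over both genotypes. The SA1-null genotype is carried by the whole culture, and the labels name neither the embryos nor the number of cultures. The deposited lists give peak positions alone, with no height and no sequencing depth, and no gene expression by which the fibroblast label could be checked. An annotation or genome of mm9 was not used here, so windows are named by position and no sequence is shown.

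Cohesin is a protein ring that embraces DNA. It keeps sister chromatids paired until they part in mitosis and, with the DNA-binding protein CTCF, folds interphase chromatin into loops. SMC1 and SMC3 form the ring together with a kleisin subunit. SA1 and SA2 are alternative subunits of which each ring carries one, and they help to place it on chromatin. Along mammalian chromosomes, gene-dense stretches generally carry more cohesin sites than gene-poor ones.

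The SA1-rich windows held 7327 of the 25837 autosomal SA1 peaks (28.4%). A rich window had between 20 and 43 SA1 peaks, with a median of 23, and another window had between 0 and 19, with a median of 9. Of the rich windows, 207 held 20 to 24 SA1 peaks, 74 held 25 to 29 and 27 held 30 or more. SA1 peaks covered 1.28% of the length of the rich windows and 0.465% of the other windows. Neighbouring SA1 peaks of a window lay a median of 24.1 kb apart in rich windows and 44.3 kb apart in other windows, as the rule brings about. When each rich window was divided into 10 parts of 100 kb, a median of 9 parts held an SA1 peak and all 10 did in 76 windows. The part with the most peaks held a median of 21.7% of its window's SA1 peaks.

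SA1-rich windows lay on every autosome, at unequal frequency. Chromosome 11 had the most, 34 of 122 windows (27.9%). It was followed in frequency by chromosomes 17 (18.8%), 15 (18.3%), 7 (17%) and 9 (16%). Chromosome 14 had the lowest frequency, 8 of 126 windows (6.35%), near those of chromosomes 18 (6.59%) and 13 (6.61%). Along the chromosomes, counted from the centromeric end of the acrocentric mouse chromosomes, rich windows sat at a median of 63.7% of the way to the last window (interquartile range 40.9 to 83.9%). Other windows sat at a median of 47.8% (23.7 to 73.5%), or 49.6% when windows without any peak were left out.

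Rich windows often touched one another. The 308 windows formed 204 unbroken runs. Of these windows, 168 (54.5%) had a rich neighbour and 140 stood alone. Of the 2174 other windows, 365 had a rich neighbour. The longest run was on chromosome 15 from 76000001 to 82000000 (mm9), with 6 windows and 157 SA1 peaks. In this run SA2 had 26 peaks in SA1-null cells and 47 in wild-type cells, SMC1 had 303 and 160 in that order of genotype, and SMC3 had 237 and 108. There were also 3 runs of 5 windows, which began at 133000001 on chromosome 1, at 122000001 on chromosome 8 and at 94000001 on chromosome 11.

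The question put to the other lists was whether they were dense in the same windows. All 6 were, and the ring subunits more so than SA2. The rich windows, 12.4% of the windows, held 24.8% of the 6260 autosomal SA2 peaks, 29% of the 46098 SMC1 peaks and 30.3% of the 34099 SMC3 peaks of SA1-null cells. Of the wild-type peaks they held 26.7% of 7540 for SA2, 31.2% of 23515 for SMC1 and 31.5% of 15287 for SMC3. SA1-null cells, which lack the protein that chose the windows, had dense cohesin in them. SMC1 had 43.4 ± 11.4 peaks per rich window and 15.1 ± 12.8 per other window in SA1-null cells (SD over 308 and 2174 windows), a ratio of 2.89 (95% interval 2.83 to 2.95). For SMC3 the means were 33.5 ± 8.99 and 10.9 ± 9.29, a ratio of 3.06 (2.99 to 3.13). SA2 had 5.03 ± 2.03 and 2.17 ± 1.84 peaks, a ratio of 2.32 (2.19 to 2.46). Intervals of such ratios of 2 peak counts are exact binomial intervals, and all intervals given cover counting error only. Windows are not replicates, so no test was made of these ratios, and their spread is given over windows and over autosomes.

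Wild-type cells had higher ratios for each subunit, and the list that chose the windows is also from wild-type cells. Wild-type SMC1 had a mean of 23.9 ± 6.48 peaks per rich window and 7.44 ± 6.27 per other window, a ratio of 3.21 (3.12 to 3.30). Wild-type SMC3 had 15.7 ± 4.84 and 4.81 ± 4.19 peaks, a ratio of 3.25 (3.14 to 3.37). Wild-type SA2 had 6.53 ± 2.81 peaks per rich window and 2.54 ± 2.11 per other window, a ratio of 2.57 (2.44 to 2.70). All 6 ratios were above 1 on each of the 19 autosomes. Among autosomes the SMC1 ratio ran from 2.32 to 3.36 in SA1-null cells and from 2.45 to 3.88 in wild-type cells. For SA2 it ran from 1.73 to 3.06 in SA1-null and from 1.90 to 3.64 in wild-type cells.

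**Figure D1:**
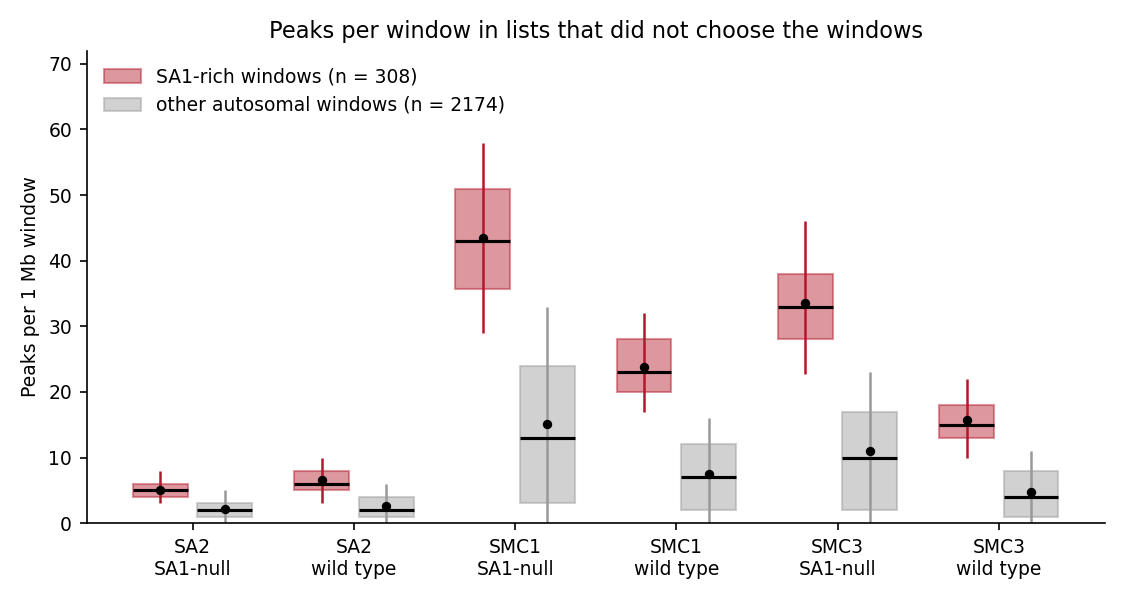
Peaks per 1 Mb window (vertical axis) for SA2, SMC1 and SMC3 in SA1-null and wild-type cells (horizontal axis), in the 308 SA1-rich windows (red) and the 2174 other autosomal windows (grey). Boxes span the quartiles, black lines are medians, dots are means and vertical lines run from the 10th to the 90th percentile. For SMC1 and SMC3 the lower quartile of the rich windows lies above the upper quartile of the other windows in both genotypes.

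The 2 sets of windows overlapped in every list. Wild-type SMC1 ran from 7 to 49 peaks in rich windows, with a median of 23, and from 0 to 34 in other windows, with a median of 7. For wild-type SMC3 the range was 2 to 35 (median 15) in rich windows and 0 to 20 (median 4) in other windows. SA2 ranged from 0 to 11 (median 5) in SA1-null cells and from 0 to 19 (median 6) in wild-type cells within rich windows. In other windows SA2 reached 11 and 10 peaks in SA1-null and wild-type cells, with medians of 2 in both. A window without any SA2 peak was uncommon among rich windows, 2 of 308 in SA1-null cells and 1 of 308 in wild-type cells. Among other windows 23.0% had none in SA1-null cells and 17.8% had none in wild-type cells. No rich window was without SMC1 or SMC3 peaks in either genotype.

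A window was counted as dense for a list when it held at least 2 times the autosomal mean of that list. In SA1-null cells, 202 rich windows (65.6%) were dense for SMC1, against 13.1% of all autosomal windows. SMC3 was dense in 233 rich windows (75.6%), against 14.3% of all, and SA2 in 122 (39.6%), against 9.23% of all. For the wild-type lists, 248 rich windows (80.5%) were dense for SMC1, against 14.8% of all windows. Wild-type SMC3 was dense in 234 (76.0%), against 13.7% of all, and wild-type SA2 in 139 (45.1%), against 10.7% of all. The reverse count shows how far the choice by SA1 missed dense windows. Of the 326 windows dense for SA1-null SMC1, 124 were other windows, and of the 368 dense for wild-type SMC1, 120 were. These made up 5.70% and 5.52% of the other windows.

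The lists did not set rich windows apart at a sharp border. The mean of each list was higher in each successive class of SA1 number. SA1-null SMC1 had 3.06 ± 4.22 peaks in windows with 1 to 4 SA1 peaks, 21.6 ± 7.97 with 10 to 14, 31.9 ± 9.95 with 15 to 19, 40.3 ± 10.2 with 20 to 24 and 59.1 ± 11.1 with 30 or more (SD over windows). Wild-type SMC1 had 1.37 ± 1.82, 10.7 ± 3.67, 16.0 ± 4.72, 21.7 ± 4.97 and 33.8 ± 7.21 peaks in the same classes. Just inside the threshold, the 62 windows with 20 SA1 peaks had means of 38.1 SMC1 peaks in SA1-null cells and 20.2 in wild-type cells. Just outside it, the 62 windows with 19 had 38.0 in SA1-null and 18.7 in wild-type cells. Mean SA2 number was 5 in SA1-null cells and 5.34 in wild-type cells just inside, and 4.19 and 5.31 in that order just outside.

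**Figure D2:**
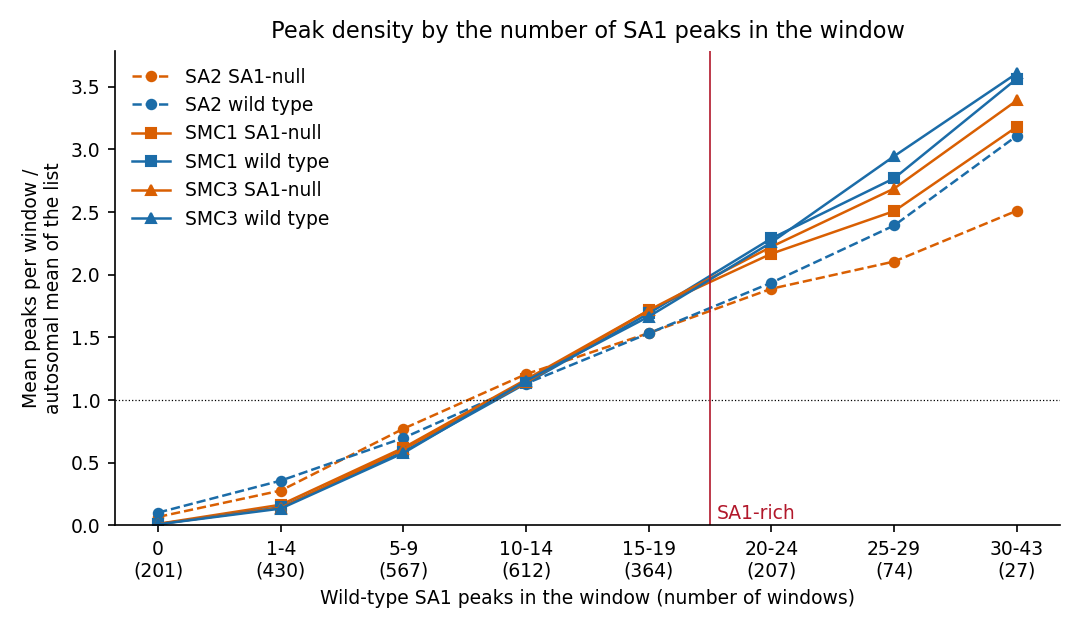
Mean peaks per window divided by the autosomal mean of the same list (vertical axis) by the number of wild-type SA1 peaks in the window (horizontal axis, with the number of windows in brackets). Each line is 1 list, orange for SA1-null and blue for wild-type cells, and the vertical red line marks the threshold of 20. In windows with 30 or more SA1 peaks the relative density was 3.61 for wild-type SMC3 and 2.51 for SA1-null SA2, the highest and the lowest of the 6 lists.

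Within the rich windows the lists followed SA1 number less closely than they did over all windows. Over all 2482 windows Spearman's rho of wild-type SA1 with wild-type SMC1 was 0.924 (Pearson's r 0.912), and among the 308 rich windows it was 0.532 (r 0.602). For SA2 the rho over all windows was 0.744 in SA1-null and 0.751 in wild-type cells, and among rich windows it was 0.170 in SA1-null and 0.355 in wild-type cells. These values describe windows of 1 genome that share mappable sequence, and the choice by SA1 narrows its range among the rich windows. Between genotypes, SMC1 numbers of rich windows had a rho of 0.722, SMC3 numbers 0.668 and SA2 numbers 0.352.

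The density reached into the adjoining windows and was lower further away. Windows next to a rich window, 365 in number, had means of 22.9 SMC1 peaks in SA1-null cells and 11.6 in wild-type cells. These are 1.23 and 1.22 times the autosomal mean. At a distance of 3 windows SMC1 was at 0.792 times its autosomal mean in SA1-null and at 0.785 times in wild-type cells. Beyond 10 windows it was at 0.630 times in SA1-null and 0.599 times in wild-type cells. SA2 was at 1.18 and 1.2 times its mean next to a rich window in SA1-null and wild-type cells, and at 0.699 and 0.664 times beyond 10 windows.

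**Figure D3:**
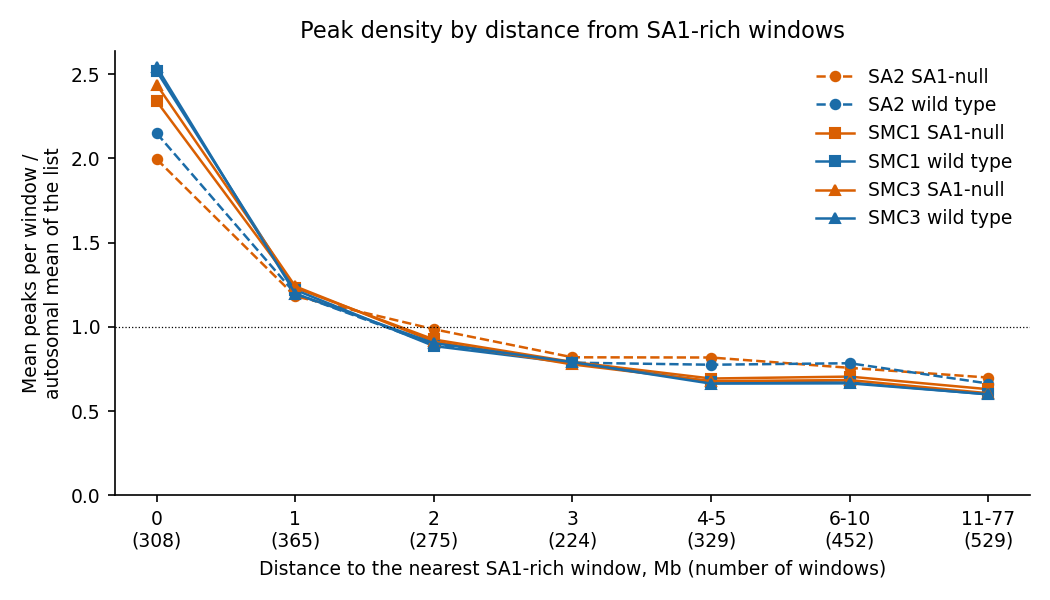
Mean peaks per window divided by the autosomal mean of the list (vertical axis) by distance in Mb from the nearest SA1-rich window (horizontal axis, with the number of windows in brackets). Each line is 1 list, orange for SA1-null and blue for wild-type cells. All 6 lists lie between 1.18 and 1.24 in the adjoining windows and below 1 from a distance of 2 windows on.

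Single SA1 positions in rich windows carried a ring peak more often than those elsewhere. SA1-null SMC1 peaks lay at 86.5% of SA1 positions in rich windows and 78.4% in other windows, and SA1-null SMC3 peaks at 82.4% and 73.5%. A wild-type SMC1 peak overlapped 5350 of 7327 SA1 peaks in rich windows (73.0%) and 11708 of 18510 in other windows (63.3%), a difference of 9.77 percentage points (95% Newcombe interval 8.53 to 11). For wild-type SMC3 the shares were 56.7% and 48.2%, a difference of 8.48 points (7.13 to 9.82). These differences are part of a gradient. The share with wild-type SMC1 was higher in each successive class of SA1 number. It was 37.0% in windows with 1 to 4 SA1 peaks, 68.0% with 15 to 19 and 72.2% with 20 to 24. SA1 peaks with neither SA2, SMC1 nor SMC3 in wild-type cells were 23.9% of those in rich windows and 33.1% of those in other windows. A position with SA1, SA2 and both ring subunits in wild-type cells was found 1343 times in rich windows (18.3%) and 2686 times in other windows (14.5%). The same SA1 list gave the windows and the positions, and ring peaks were denser in rich windows. All shares of this paragraph are therefore not independent of the choice of windows.

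Read from the ring, the share of peaks at an SA1 position differed little between the windows. It was 47.2% of SA1-null SMC1 peaks in rich windows and 44.3% in other windows, a difference of 2.90 points (1.90 to 3.90) whose interval leaves out 0. For SA1-null SMC3 peaks it was 58.0% and 56.8%, a difference of 1.13 points (-0.0172 to 2.27). An SA1 peak was present at 72.4% of wild-type SMC1 peaks in rich windows and at 72.2% in other windows, a difference of 0.170 points (-1.07 to 1.4). Of wild-type SMC3 peaks, 85.9% and 85.2% had one, a difference of 0.753 points (-0.458 to 1.93). Both wild-type intervals include 0 and leave out differences above 2 points. SA1 density enters these shares and was set by the rule, so they too are not independent of the choice of windows. Wild-type SMC1 peaks with neither SA1 nor SA2 were as dense in rich windows as SMC1 at large. Their number per window was 3.19 times that of other windows (3.03 to 3.36), against 3.21 times for all wild-type SMC1 peaks. Per SMC1 peak of the same genotype, SA2 had 0.116 peaks in rich windows and 0.144 in other windows in SA1-null cells, and 0.274 and 0.342 in wild-type cells.

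SA2 peaks that did not overlap a wild-type SA1 peak were spread more evenly than the rest. SA1-null SA2 peaks at wild-type SA1 positions were 2.49 times as dense in rich windows as in other windows (2.34 to 2.64). Those away from them, 64 in rich windows and 494 in other windows, were 0.915 times as dense (0.694 to 1.19). In wild-type cells the ratio was 3.29 (3.10 to 3.48) for SA2 peaks that overlapped SA1 and 1.25 (1.11 to 1.4) for those that did not, 344 in rich windows and 1949 in other windows. Of all SA1-null SA2 peaks, 95.9% lay at an SA1 position in rich windows and 89.5% in other windows, and for wild-type SA2 peaks the shares were 82.9% and 64.7%. An SA1 peak is closer at hand where SA1 is dense, which the rule sets. Neither these shares nor the density ratios of SA2 peaks with and without SA1 are therefore independent of the choice of windows. SMC1 does not enter the rule, but it was 2.89 times as dense in rich windows in SA1-null and 3.21 times in wild-type cells. Its shares are therefore not independent of the choice of windows either. SMC1 accompanied 95% of SA1-null SA2 peaks in rich windows and 86.6% in other windows. In wild-type cells SMC1 accompanied 77.7% of SA2 peaks in rich windows and 58.1% in other windows.

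The comparison of genotypes within the windows asked whether peak number differed between SA1-null and wild-type cells in the same proportion where SA1 is dense. The ring subunits had more peaks in SA1-null than in wild-type cells in every one of the 308 rich windows, for SMC1 and for SMC3. Over all windows with a peak of the subunit in either genotype this held for 92.8% (SMC1) and 93.9% (SMC3). Mean SMC1 number was higher in SA1-null cells by 19.6 ± 7.87 peaks per rich window and by 7.61 ± 7.53 per other window. For SMC3 the differences were 17.8 ± 6.55 and 6.13 ± 5.91. As a ratio, however, the excess was smaller in rich windows. SA1-null cells had 13379 SMC1 peaks and wild-type cells 7346 in rich windows, a ratio of 1.82 (1.77 to 1.87). In other windows the numbers were 32719 and 16169, a ratio of 2.02 (1.99 to 2.06). The ratio in rich windows was 0.900 times that in other windows (95% Woolf interval 0.870 to 0.931) and it was below 1 on 19 of 19 autosomes. For SMC3 the ratios were 2.14 in rich and 2.27 in other windows, a quotient of 0.941 (0.903 to 0.981) that was below 1 on 14 of 19 autosomes. The interval of the SMC3 quotient included 1 with the window grid shifted (0.966, 0.927 to 1.01), with a threshold of 15 SA1 peaks (0.978, 0.941 to 1.02) and in the widest 50% of each list (0.960, 0.905 to 1.02). The windows were chosen by a wild-type list, which can favour wild-type peaks in them and so lower a quotient. The quotients of SMC1, SMC3 and SA2 are therefore not independent of the choice of windows, and the size of this part was not tested.

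A 2-fold excess was also less frequent among rich windows for SMC1. SA1-null SMC1 peaks numbered at least 2 times the wild-type peaks in 92 of 308 rich windows (29.9%), against 49.8% of the 2198 windows with a peak. For SMC3 it was 190 windows (61.7%), against 66% of 2157. A window without wild-type peaks met this rule with any SA1-null peak. Of the 2174 other windows, 400 had no wild-type SMC1 peak and 478 no wild-type SMC3 peak, while no rich window lacked either. The part that low counts play in these shares was not tested. The same holds for the shares of windows with more or fewer SA1-null peaks, for all 3 subunits. Covered length gave quotients close to those of peak number, 0.906 for SMC1 and 0.944 for SMC3, and median widths in rich and other windows were at most 5 bp apart for both subunits in both genotypes. The SMC1 list of SA1-null cells takes 2 libraries together, and depth is unknown, so the overall level of each ratio compares lists. The part that depth plays in the quotient between windows was not tested.

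SA2 had fewer peaks in SA1-null than in wild-type cells in most rich windows. In SA1-null cells SA2 had 1550 peaks in rich windows and in wild-type cells 2011, a ratio of 0.771 (0.721 to 0.824). In other windows it had 4710 and 5529, a ratio of 0.852 (0.819 to 0.886). The quotient was 0.905 (0.838 to 0.977) and below 1 on 15 of 19 autosomes. SA2 peaks were fewer in SA1-null cells in 196 of the rich windows (63.6%), equal in 44 and more numerous in 68 (22.1%). Among all 2228 windows with a SA2 peak, 50.3% had fewer in SA1-null cells and 30.1% had more. The classes of SA1 number gave the same order, with SA1-null to wild-type SA2 ratios of 0.918 (0.845 to 0.997) in windows with 5 to 9 SA1 peaks, 0.831 (0.774 to 0.893) with 15 to 19, 0.810 (0.744 to 0.881) with 20 to 24 and 0.671 (0.549 to 0.817) with 30 or more. Windows with 1 to 4 SA1 peaks departed from it, at 0.646 (0.557 to 0.748), as did those with none, at 0.548 (0.350 to 0.846).

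**Figure D4:**
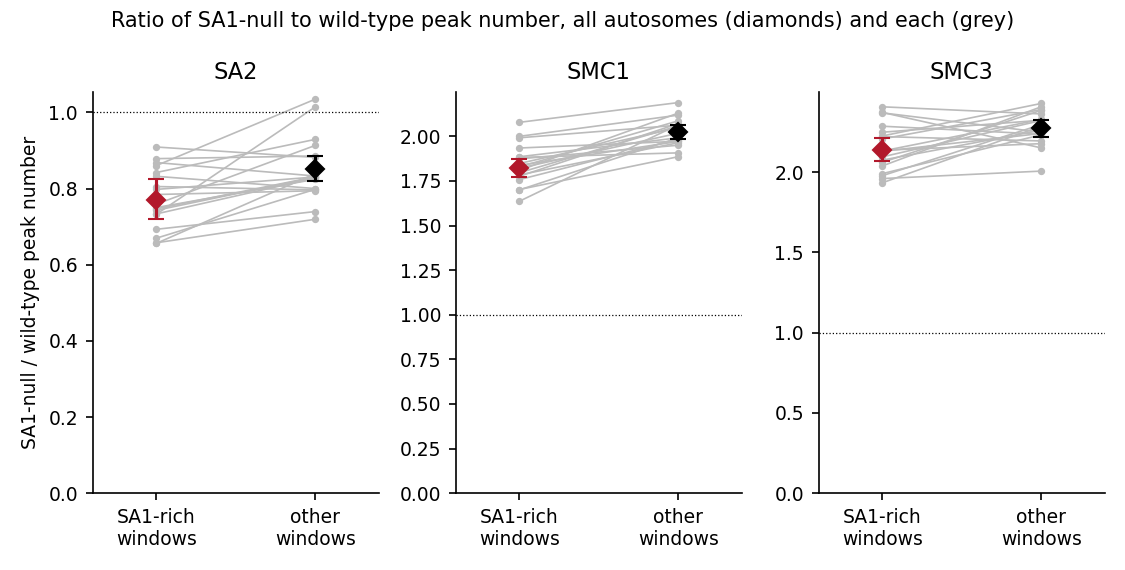
Number of SA1-null peaks divided by the number of wild-type peaks (vertical axis) in SA1-rich windows and in other windows, for SA2, SMC1 and SMC3. Diamonds are all autosomes with exact binomial 95% intervals, and each grey line joins the 2 values of 1 autosome. The SMC1 ratio was lower in rich windows on all 19 autosomes, the SA2 ratio on 15 and the SMC3 ratio on 14.

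At SA1 positions alone, the SA2 ratio lay below 1 in rich windows and above 1 in other windows. SA2 peaks at a wild-type SA1 peak numbered 1486 in SA1-null and 1667 in wild-type cells in rich windows, a ratio of 0.891 (0.831 to 0.957). In other windows they numbered 4216 and 3580, a ratio of 1.18 (1.13 to 1.23). The quotient was 0.757 (0.697 to 0.822), and it was below 1 on 18 of 19 autosomes, with a range of 0.624 to 1.02. Windows and positions were both chosen by the wild-type SA1 list, which can favour SA2 of the same genotype. This quotient is thus not independent of the choice. SMC1 and SMC3 at SA1 positions had quotients nearer 1, at 0.957 (0.916 to 1) and 0.951 (0.907 to 0.998). Away from SA1 positions the SA2 quotient was about as low, at 0.734 (0.552 to 0.976), and below 1 on 11 of 19 autosomes. There SA2 had 64 peaks in SA1-null and 344 in wild-type cells in rich windows (ratio 0.186), and 494 and 1949 in other windows (ratio 0.253). SMC1 away from SA1 positions had a quotient of 0.858 (0.809 to 0.911), further from 1 than at SA1 positions, and SMC3 one of 0.965 (0.876 to 1.06).

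Counted over the SA1 positions themselves, SA2 of SA1-null cells was found at 20.3% of those in rich windows (95% Wilson interval 19.4 to 21.3%) and at 22.8% of those in other windows (22.2 to 23.4%). SA2 of wild-type cells was found at 22.8% (21.9 to 23.8%) and 19.3% (18.8 to 19.9%) of the same positions. The difference between rich and other windows was -2.45 points (-3.54 to -1.34) in SA1-null cells and 3.48 points (2.37 to 4.60) in wild-type cells. Here too a wild-type list chose both the windows and the positions. Of SA1 positions in rich windows, 798 (10.9%) had SA2 in both genotypes, close to the 11% of other windows. Those with SA2 in SA1-null cells alone were 692 (9.44%) in rich windows and 2188 (11.8%) in other windows. Positions with SA2 in wild-type cells alone were 873 (11.9%) and 1548 (8.36%). By SA1 number, the share in SA1-null cells was highest, 24.2%, with 5 to 9 SA1 peaks, and 19% with 30 or more. In wild-type cells it was higher in each successive class, at 13.7% in windows with 1 to 4 SA1 peaks and 25.9% in those with 30 or more.

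**Figure D5:**
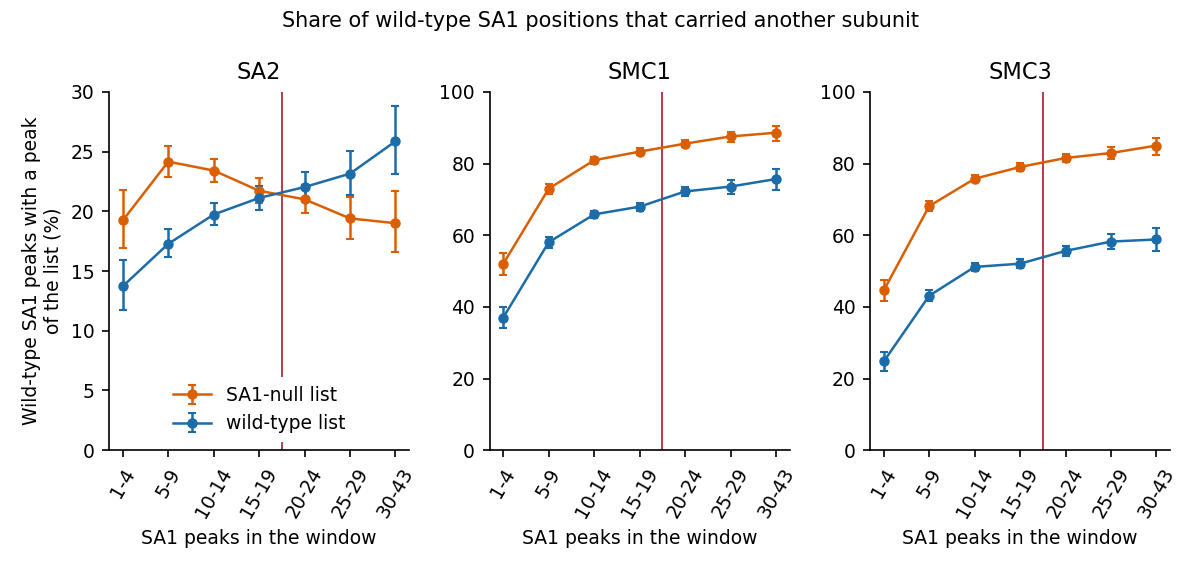
Share of wild-type SA1 peaks in percent (vertical axis) that overlapped a peak of SA2, SMC1 or SMC3, by the number of SA1 peaks in their window (horizontal axis), for the SA1-null lists (orange) and the wild-type lists (blue). Bars are 95% Wilson intervals and the red line marks the threshold of 20. For SA2 the lines cross near the threshold, with 19% for the SA1-null list and 25.9% for the wild-type list at 30 or more SA1 peaks, whereas for SMC1 and SMC3 the SA1-null list lies above the wild-type list in every class.

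Wild-type positions were found again in SA1-null cells slightly more often in rich windows for the ring subunits. Of wild-type SMC1 peaks 95% had a SA1-null SMC1 peak in rich windows and 92.7% in other windows, a difference of 2.28 points (1.63 to 2.91). Of wild-type SMC3 peaks 98.5% and 96.0% did, a difference of 2.42 points (1.90 to 2.92). For SA2 the shares were 39.8% and 37.3%, and the interval of the difference, -0.00732 to 4.97 points, just included 0. When shared peaks had to cover 50% or more of the shorter one, the difference was 2.51 points (0.0290 to 5.01), which leaves out 0. Among the widest 50% of each list the SMC1 difference was 1.21 points and the SA2 difference -2.45 points, both with intervals that include 0. In the other direction, SMC1 peaks found in SA1-null cells without a wild-type partner were 47.7% of those in rich windows and 54.1% in other windows. They were 2.54 times as dense in rich as in other windows (2.47 to 2.62), below the 3.29 times (3.20 to 3.38) of those with a partner. Unpartnered SMC3 peaks were 54.3% of the SA1-null list in rich windows and 57.9% in other windows. Of SA1-null SA2 peaks 48.4% were unpartnered in rich windows and 56.2% in other windows, a difference of -7.85 points (-10.7 to -4.99). A wild-type list chose the windows, and peaks of each subunit were denser in rich windows in both genotypes. The shares and density ratios of partnered and unpartnered peaks are therefore not independent of the choice of windows.

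The 10 windows with the most SA1 peaks lay on chromosomes 1, 2, 5, 10, 11, 17 and 19. The first was on chromosome 10 from 80000001 to 81000000, with 43 SA1 peaks. SMC1 had 70 peaks there in SA1-null and 49 in wild-type cells, SMC3 had 65 and 35, and SA2 had 4 and 8. It also held the most wild-type SMC1, wild-type SMC3 and SA1-null SMC3 peaks of all rich windows. The adjoining window, from 79000001 to 80000000, had 35 SA1 peaks, with 10 SA2 peaks in SA1-null and 14 in wild-type cells. On chromosome 17 the window from 35000001 to 36000000 had 40 SA1 peaks, with 5 SA2 peaks in SA1-null and 14 in wild-type cells. On chromosome 19 the window from 5000001 to 6000000 had 38 SA1 peaks and 86 SMC1 peaks in SA1-null cells, the most of any rich window, against 45 in wild-type cells. The window on chromosome 2 from 117000001 to 118000000 also had 38 SA1 peaks. SMC1 had 70 peaks there in SA1-null and 25 in wild-type cells, and SA2 had 4 in both.

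The other 6 of these windows had 33 to 36 SA1 peaks, 39 to 64 SMC1 peaks in SA1-null cells and 23 to 42 in wild-type cells. Besides the second one on chromosome 10, already named, they began at 137000001 on chromosome 1, at 123000001 on chromosome 5 and at 69000001, 96000001 and 98000001 on chromosome 11. In 8 of all 10 windows SA2 had fewer peaks in SA1-null than in wild-type cells. The exceptions were the window on chromosome 2, with 4 in both, and that on chromosome 11 from 69000001, with 10 in SA1-null and 8 in wild-type cells. Fewer SA2 peaks in SA1-null cells were found in 63.6% of all rich windows and in 50.3% of all autosomal windows with a SA2 peak. The 10 windows are the highest of the wild-type SA1 list, so their count is not independent of this choice.

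The windows at the ends of the genotype ratio show how far members differed. Among windows with at least 10 peaks of the subunit over both genotypes, and with 1 added to both numbers, the lowest SA2 ratio was on chromosome 7 from 17000001 to 18000000, with 2 SA2 peaks in SA1-null cells and 14 in wild-type cells. All of its 25 SA1 peaks overlapped a SA1-null SMC1 peak and 96% a wild-type one. The highest SA2 ratio among them was on chromosome 1 from 91000001 to 92000000, with 8 SA2 peaks in SA1-null and 2 in wild-type cells. For SMC1 and SMC3 the lowest ratio was in 1 window, on chromosome 2 from 180000001 to 181000000, with 28 SMC1 peaks in SA1-null and 26 in wild-type cells, and 23 and 20 SMC3 peaks. The highest ratio of both was in another single window, on chromosome 13 from 5000001 to 6000000. SMC1 had 36 peaks there in SA1-null and 7 in wild-type cells, and SMC3 had 22 and 2.

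The window on chromosome 13 held 22 SA1 peaks, of which none overlapped a wild-type SMC3 peak or a SA2 peak of either genotype. SMC1 accompanied 77.3% of them in SA1-null cells and 27.3% in wild-type cells. It had the fewest wild-type SMC1 and SMC3 peaks of all rich windows and 1 of the 2 zero counts of SA1-null SA2, and 12 of its SA1 peaks fell in a single stretch of 100 kb. The fewest wild-type SA2 peaks, 0, were in the window on chromosome 7 from 137000001 to 138000000, which had 21 SA1 peaks and 1 SA2 peak in SA1-null cells.

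Some rich windows carried SA1 with little of the wild-type ring lists, and they were picked out after their values were seen. The share of a window's SA1 peaks with a wild-type SMC1 peak had a median of 73.7% over the 308 windows (interquartile range 65.2 to 81.5%). It was under 50% in 11 windows and 90% or more in 25. Such windows were not counted among the other windows, where the share over all SA1 peaks was 63.3%, against 73.0% in rich windows. Among rich windows the lowest share, 17.2%, was on chromosome 18 from 37000001 to 38000000, a window with 29 SA1 peaks. SMC1 had 24 peaks there in SA1-null and 10 in wild-type cells, and SA2 had 1 and 2. Of the SA1 peaks in this window 11 fell in a single stretch of 100 kb. The next lowest, 20%, was on chromosome 9 from 70000001 to 71000000, with 20 SA1 peaks, and with 43 SMC1 peaks in SA1-null and 11 in wild-type cells. In SA1-null cells SMC1 was thus near its mean for rich windows there, and 70% of the SA1 peaks had one. Wild-type SA2 was most frequent, at 19 peaks, on chromosome 2 from 32000001 to 33000000, where SA1-null cells had 5.

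The lists that measure background had few intervals, and their density ratios had intervals that include 1. SA1 of SA1-null cells had 13 peaks in the 308 rich windows and 65 in the 2174 other windows, 1.41 times as many per window (0.714 to 2.59). With so few peaks, this interval also takes in the SA2 ratios of 2.32 and 2.57. The input called together with wild-type SA1 and with SA2 had 33 and 320 intervals (ratio 0.728, 0.493 to 1.04). The input of the SMC libraries had 58 and 333 (ratio 1.23, 0.914 to 1.63). Of the SA1 peaks in rich windows, 24 (0.328%) overlapped an interval of these 3 lists, and 35 (0.189%) of those in other windows did, a difference of 0.138 points (0.00823 to 0.306). Per window, such SA1 peaks were 4.84 times as dense in rich windows (2.75 to 8.37), against 2.79 times for all SA1 peaks. Of the 13 SA1-null SA1 peaks, 8 lay in 1 window, on chromosome 9 from 100000001 to 101000000. That window also held 9 of the 24 SA1 peaks, so much of the difference rests on it.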

How the data were processed

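The authors deposited 10 interval lists, whose values are start and end positions (unit other), with no score. They were taken as mm9, per the submitters' processing notes, which also name CASAVA 1.7. The last interval lay beyond the last gene of a GRCm38.p6 table on 10 of 20 chromosomes. Software for alignment and peak calling was not given in the sources used here; deposited names give a false discovery rate of 10 and, for SMC1 of SA1-null cells, 2 replicates together. They also show that wild-type SA1 and both SA2 lists were called against one input and the rest against the other. Depth is unknown.

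Windows ran to the last interval of any list on a chromosome, and 117 of them held no immunoprecipitation peak. Each peak was assigned by its midpoint, and peaks overlapping by at least 1 bp were counted as shared. Python 3.11.15, numpy 2.4.6, pandas 2.3.3, scipy 1.17.1 and matplotlib 3.10.9 were used. Tested on simulated data, 17 of 18 planted density ratios fell within their 95% interval, and overlap counts equalled those of bedtools 2.31.1 in 200 of 200 comparisons. No p-value was computed, since each group has 1 list. The windows, classes and alternatives were chosen with earlier results of these data known. Windows named by rule were the 10 with the most SA1 peaks, the longest run, the fewest wild-type peaks of each list, and the extremes of each SA1-null to wild-type ratio (1 added to both numbers, at least 10 peaks). Any other window was named after its values were seen.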

Additional observations from a re-analysis of the deposited data

Results flagged for a closer look

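In 4 SA1-rich windows a list that should hold no cohesin had more intervals than the 3 that a count of 0 allows. The window on chromosome 9 from 100000001 to 101000000 held 8 SA1 peaks of SA1-null cells, more than the 5 in all other rich windows together. All 8 overlapped a wild-type SA1 peak and a wild-type SA2 peak, 5 overlapped a SA1-null SA2 peak, and none overlapped a SMC1 or SMC3 peak of either genotype. This window had 29 wild-type SA1 peaks, 11 SA2 peaks in SA1-null cells and 16 in wild-type cells, the highest SA2 number of any rich window in SA1-null cells, shared with 1 other. SMC1 had 17 peaks there in SA1-null and 10 in wild-type cells. A GRCm38.p6 table places Stag1, which encodes SA1, on chromosome 9 too, and whether the gene lies in this mm9 window was not tested.

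The input of the SA libraries had 5 intervals in a window of chromosome 11 that begins at 3000001 and has 26 SA1 peaks. The input of the SMC libraries had 5 intervals in a window of chromosome 11 that begins at 116000001 and has 23 SA1 peaks. It also had 5 in a window of chromosome 6 that begins at 115000001 and has 21 SA1 peaks. Without these 4 windows, a setting added after the data were seen, the SMC1 quotient between rich and other windows remained at 0.900 and the SA2 quotient at 0.905.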

How the results depend on the processing

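Leaving out chromosome 11, leaving out the 4 windows with control intervals, and recalculating the SA2 ratio at SA1 positions were chosen after seeing the data. All other alternatives were planned. In 54 of 54 recalculations the 6 density ratios stayed above 1 (2.20 to 3.44), and in 36 of 36 the SA1-null to wild-type quotients stayed below 1 (0.707 to 0.978). Leaving out other windows without a peak removes no peak, so it could not change a quotient. Those recalculations repeat the reported quotients and are counted among the 36 and among the 90 values below. Of 113 recalculated values, 90 stayed within the interval of the reported value or, for the number of windows, within 1.5 times. The number of rich windows was 672 at 15 or more SA1 peaks and 101 at 25 or more. At 15 or more, the ratios were 3.19 (SMC1) and 3.35 (SMC3) in SA1-null cells and 3.44 (SMC1) and 3.43 (SMC3) in wild-type cells. At 25 or more, the wild-type ratios were 2.77 (SA2) and 3.43 (SMC3). Against other windows with at least 1 peak they were 2.73 (SMC1) and 2.90 (SMC3) in SA1-null cells, and 2.43 (SA2), 3.03 (SMC1) and 3.08 (SMC3) in wild-type cells, lower because empty windows leave the denominator. With peaks less than 1000 bp apart merged, SA1-null SMC1 gave 2.77 and SMC3 gave 2.97. In the widest 50% of each list, SA1-null SMC1 gave 2.96 and wild-type SA2 2.94, and the SA2 genotype quotient was 0.827. There, SA1 positions in rich windows exceeded the others by 6.48 points with SA1-null SMC3, by 6.90 points with wild-type SMC1 and by 5.07 points with wild-type SMC3. Wild-type peaks found again in SA1-null cells differed by 1.21 points (SMC1) and -2.45 points (SA2) in these lists. For these values the cause was not tested. The lists hold no heights, so ranking by strength could not be tried. No paired analysis was possible because the groups share fewer than 2 replicate numbers and the 2 SMC1 replicates of SA1-null cells are in 1 list, so neither could be left out.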
